A study of Rattus norvegicus with 11 samples.

Results

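The genes described here are 9 genes tied to glucocorticoid action, read in fat from 11 rats. 8 of them are known to be induced by glucocorticoids in many tissues (Fkbp5, Tsc22d3, Zbtb16, Sgk1, Klf9, Hif3a, Errfi1 and Mt2A), and the ninth is Hsd11b1, which encodes an enzyme that makes active glucocorticoid inside cells. They were chosen by symbol from the 25274 gene rows used, with earlier results of these data known. Tsc22d3 stands on 2 rows, so the 9 symbols fill 10 rows.

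Retroperitoneal white adipose tissue came from wild-type female Wistar rats. All of them ate a western diet from 10 weeks of age, were ovariectomized after 6 weeks of it, and were given degarelix, which blocks the receptor for gonadotropin-releasing hormone and so lowers the pituitary's own luteinizing and follicle-stimulating hormone (FSH). Osmotic pumps then delivered vehicle to 6 rats (degarelix only) and to the other 5 FSH, dosed daily at 6 µg/kg (degarelix plus FSH). Western diet was restricted for 12 days to hold body weight, then unrestricted for 7 days, and the rats were killed when 19 weeks old, having fasted for 4 h. By the labels the groups differ in FSH alone, on a shared background without ovaries, and these samples hold no group with ovaries or without degarelix. RNA was sequenced from each rat separately, so each value below is 1 rat.

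Glucocorticoids (corticosterone in the rat) enter cells and bind the glucocorticoid receptor, encoded by Nr3c1, which sits in the cytoplasm with heat shock proteins and immunophilins. The receptor then moves to the nucleus and binds response elements near its target genes. In fat the hormone is known for driving adipocyte differentiation, for effects on lipid storage and release, and for restraining inflammation. Hsd11b1 adds a local step, since the enzyme regenerates corticosterone from inert 11-dehydrocorticosterone, using NADPH supplied inside the endoplasmic reticulum by H6pd, while Hsd11b2 runs the opposite reaction.

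Total counts ran from 16452117 to 23694602 in the degarelix only libraries and from 13163021 to 19837706 in the FSH libraries (p = 0.0649, two-sided exact permutation test over all splits into 6 and 5). Levels are given as CPM, the count relative to its library's total, after TMM factors that correct for differences in library composition. Differences are log2 ratios of degarelix plus FSH over degarelix only, with their standard error, from edgeR's quasi-likelihood test fitted to 12846 genes and adjusted by Benjamini-Hochberg. The summed level of 8 adipocyte markers lay between 23337 and 30634 CPM without FSH and between 23081 and 33571 CPM with FSH. In whole tissue, fewer cells of a type and less RNA per cell cannot be told apart. 2 rats stood apart on several of these genes, degarelix only replicate 4 and FSH replicate 3, and the values they moved most are also given without them.

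None of the 9 member rows that could be tested passed an adjusted p of 0.05, where 2.27% of all genes did. At an unadjusted p below 0.05 there were 2 of 9, against 22.6% of all genes. Both were higher with FSH (11.8% of all genes), and they were Errfi1, a brake on growth factor receptors, and Sgk1, a kinase. No member row had groups that did not overlap (4.34% of all genes). The log2 difference lay above 0 for 3 rows and below 0 for 6, with a median of -0.08, beside a median of 0.01 over all genes. In the plot of differences, Errfi1 and Sgk1 are the only members whose 95% interval lies on one side of 0.

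**Figure D1:**
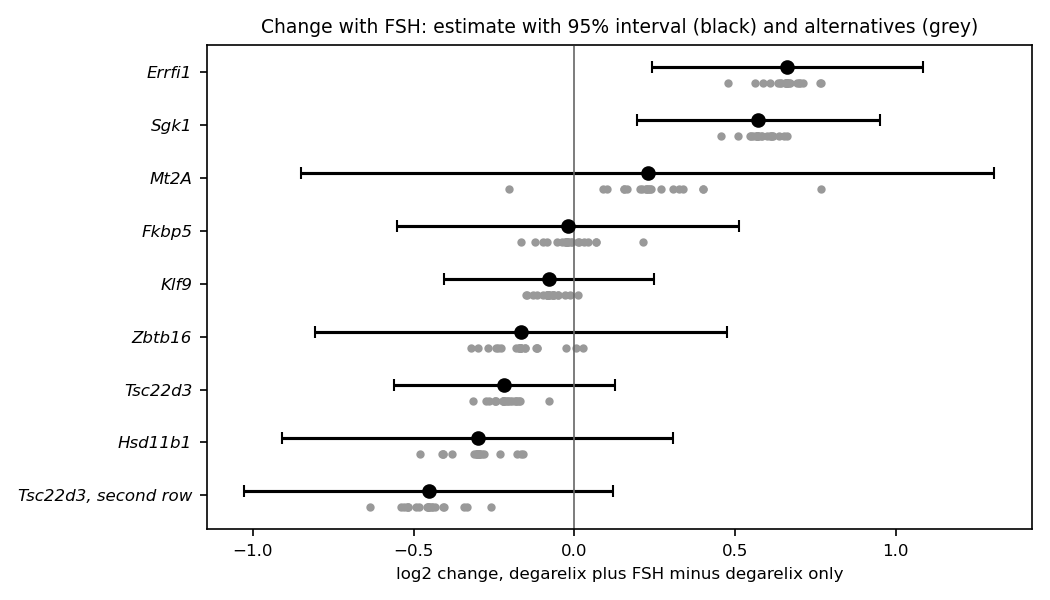
Log2 difference (degarelix plus FSH over degarelix only) of the 9 member rows tested, in black with bars for the 95% interval from edgeR (n = 6 and n = 5), and the same under the alternative settings as grey points. The intervals of Errfi1 (0.24 to 1.08) and Sgk1 (0.19 to 0.95) lie above 0, and those of the other rows include 0.

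Hsd11b1 (ENSRNOG00000005861) had a wide spread within each group. Without FSH its level ran from 23.1 to 56.8 CPM with a median of 38.9, and with FSH it was 40.7, 20.3, 19.2, 31.3 and 46.1 CPM in replicates 1 to 5. FSH replicates 2 and 3 lay below every degarelix only rat, and the other 3 lay inside the degarelix only range. The means were 39.0 ± 12.5 CPM (SD, n = 6) and 31.5 ± 12.0 CPM (SD, n = 5), a log2 difference of -0.30 ± 0.28 (adjusted p = 0.550). The 95% interval ran from -0.91 to 0.31, and the difference was -0.41 without degarelix only replicate 4 and -0.17 without FSH replicate 3.

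The genes around this enzyme gave no call either. H6pd, its NADPH supplier, averaged 19.5 ± 1.75 and 17.9 ± 1.70 CPM (without and with FSH; log2 difference -0.13 ± 0.08, adjusted p = 0.381). Hsd11b2 held 24.7 ± 8.83 and 24.6 ± 8.74 CPM (log2 difference -0.01 ± 0.27, adjusted p = 0.991), and its groups covered nearly the same range. Of 10 tested genes for glucocorticoid and steroid interconversion and transport, Hsd11b1 included, 9 lay below 0 and 1 above, with a median of -0.21. Of all genes tested, 51.6% lay above 0. At an unadjusted p below 0.05 there were 2 of 10, a share near the 22.6% of all genes. The smallest p was that of Slco2a1, a prostaglandin transporter (46.6 ± 16.1 to 26.2 ± 9.36 CPM, log2 difference -0.83 ± 0.27, adjusted p = 0.115).

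The receptor gene itself did not pass either. The Nr3c1 row that holds most counts (ENSRNOG00000014096) averaged 208 ± 15.98 CPM in degarelix only rats and 196 ± 21.3 CPM in FSH rats (log2 difference -0.09 ± 0.08, adjusted p = 0.553, 95% interval -0.26 to 0.09). A second row with the same symbol (ENSRNOG00000048800) had 1.84 ± 0.502 and 1.47 ± 0.368 CPM. Because the symbol is on 2 rows, it was kept out of the list of receptors, chaperones and coregulators. Of that list, 18 genes were tested and none passed, with 1 higher and 3 lower at an unadjusted p below 0.05 (near the 22.6% of all genes) and a median of -0.10. The 3 lower ones were the cochaperone Hspa4 (-0.23 ± 0.06, adjusted p = 0.0686), the heat shock protein gene Hsp90aa1 (-0.75 ± 0.26, adjusted p = 0.131, read at only 2.02 ± 0.233 CPM with FSH) and the coactivator Ncoa3 (-0.18 ± 0.08, adjusted p = 0.219). The higher one was the acetyltransferase Crebbp (0.21 ± 0.08, adjusted p = 0.163).

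The adrenal gland, which makes corticosterone, lies close to this fat depot, so its markers were read as well. Cortex markers summed to 81.5 to 114 CPM without FSH and 83.6 to 114 CPM with FSH (7 of 8 markers matched, adjusted p = 0.957, exact permutation test adjusted over 18 marker lists). The cortical transcription factor Nr5a1 and the aldosterone synthase Cyp11b2 were at 0 counts in every library. Nearly all of the sum came from Cyp11a1, Mc2r and Star, and whether their reads came from adrenal tissue was not tested. Cyp11a1, the enzyme of the first step of steroid synthesis, was read at 33.7 to 43.7 CPM across all rats, and the ACTH receptor Mc2r at 21.3 to 58.6 CPM. Star, which carries cholesterol into mitochondria, averaged 24.8 ± 6.51 CPM in degarelix only rats and 16.7 ± 5.07 CPM in FSH rats (log2 difference -0.57 ± 0.23, edgeR adjusted p = 0.175), with all 5 FSH rats below the degarelix only mean. Kidney markers summed to at most 0.297 CPM in any rat, with 5 of 7 at 0 throughout.

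Fkbp5 (ENSRNOG00000022523) encodes an immunophilin that binds the receptor complex and lowers its affinity for hormone, and it is among the most used readouts of glucocorticoid action. Its level ran from 45.4 to 124 CPM without FSH, with a median of 65.8, and was 52.5, 64.2, 97.6, 73.5 and 63.7 CPM in the FSH rats. The groups overlapped throughout, with degarelix only replicate 4 highest and FSH replicate 3 next. The means were 71.2 ± 28.1 CPM (SD, n = 6) and 70.3 ± 17.0 CPM (SD, n = 5), a log2 difference of -0.02 ± 0.24 (95% interval -0.55 to 0.51, adjusted p = 0.971). Without degarelix only replicate 4 the degarelix only mean was 60.6 ± 12.0 CPM and the log2 difference was 0.21 (adjusted p = 0.476). With so small a difference, the sign also turned without FSH replicates 1, 2 or 5.

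Tsc22d3 encodes GILZ, a leucine zipper protein through which glucocorticoids restrain inflammatory signalling. The row with most counts (ENSRNOG00000056135) ran from 180 to 325 CPM without FSH with a median of 200.4, and was 184, 189, 244, 179.9 and 167 CPM with FSH. The highest rat of each group was again degarelix only replicate 4 and FSH replicate 3. The log2 difference was -0.22 ± 0.16 (95% interval -0.56 to 0.13, adjusted p = 0.434), or -0.08 without degarelix only replicate 4, where the degarelix only mean was 204 ± 28.3 CPM. The second row (ENSRNOG00000060899) had 8.79 to 19.7 CPM without FSH, with a median of 10.6, and 6.07, 8.39, 13.3, 10.95 and 5.96 CPM with FSH (log2 difference -0.45 ± 0.26, adjusted p = 0.328, or -0.26 without degarelix only replicate 4). Over the 11 rats the rows had r = 0.70, as a description, and how reads were divided between them is not given in the sources used here.

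**Figure D2:**
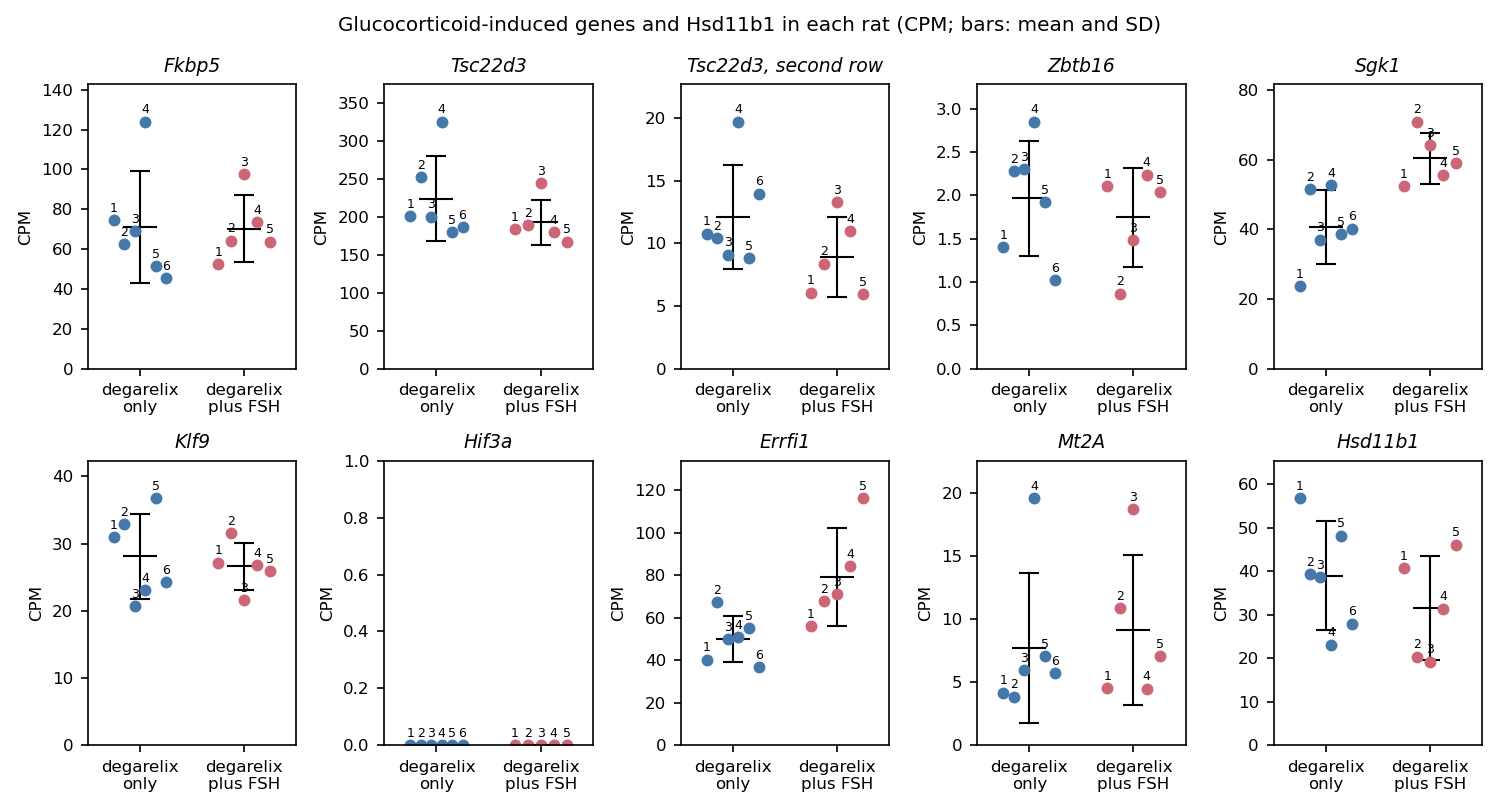
Level of each member row in each of the 11 rats (CPM on a linear axis from 0, its scale set per panel), numbered by replicate, with a dash for the group mean and an error bar for 1 SD (n = 6 degarelix only, n = 5 degarelix plus FSH). Degarelix only replicate 4 is the highest of all rats for Fkbp5, Tsc22d3, Zbtb16 and Mt2A, while for Sgk1 and Errfi1 4 of 5 FSH rats lie above every degarelix only rat.

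3 further members are transcription factors. Zbtb16 (ENSRNOG00000029980), the zinc finger protein PLZF, was read at 14 to 62 counts per library. Its level ran from 1.02 to 2.85 CPM without FSH with a median of 2.10, and was 2.10, 0.864, 1.49, 2.24 and 2.04 CPM with FSH. The log2 difference was -0.17 ± 0.29 (adjusted p = 0.777), with a 95% interval of -0.81 to 0.48.

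Klf9 (ENSRNOG00000014215), a Krüppel-like factor that is a direct target of the receptor, ran from 20.7 to 36.8 CPM without FSH with a median of 27.6. With FSH it was 27.1, 31.5, 21.6, 26.8 and 25.9 CPM, all inside the degarelix only range. Its log2 difference of -0.08 ± 0.15 (adjusted p = 0.794) had a 95% interval of -0.40 to 0.25. Hif3a (ENSRNOG00000017198), a member of the hypoxia-inducible factor family, had 0 counts in all 11 libraries, which allows up to 0.127 to 0.223 CPM per library (3 counts, covering counting error only), and 8240 rows of the table were at 0 throughout. It was not tested.

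Sgk1 (ENSRNOG00000011815) encodes a kinase of ion transport and cell survival that glucocorticoids and mineralocorticoids induce. Without FSH its level ran from 23.6 to 52.7 CPM with a median of 39.4, and with FSH it was 52.4, 71.0, 64.2, 55.5 and 59.0 CPM. FSH replicates 2 to 5 lay above every degarelix only rat, and FSH replicate 1 lay just below degarelix only replicate 4. The mean was 40.6 ± 10.7 CPM (SD, n = 6) without FSH and 60.4 ± 7.34 CPM (SD, n = 5) with FSH, a 1.49-fold ratio and a log2 difference of 0.57 ± 0.17. The difference did not pass over all genes (edgeR unadjusted p = 0.00640, adjusted p = 0.0949).

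Of 7 tested genes for Sgk1, its relatives and its targets, 1 passed, Nedd4l, where 2.27% of all genes did. Nedd4l (ENSRNOG00000017610) encodes a ubiquitin ligase that removes the epithelial sodium channel from the cell surface and that the Sgk1 kinase is known to phosphorylate. It ran from 27.0 to 33.8 CPM without FSH with a median of 28.1, and was 19.7, 23.1, 23.3, 25.7 and 22.8 CPM with FSH. The groups did not overlap, as for 4.34% of all genes. Nedd4l fell from 29.3 ± 2.71 to 22.9 ± 2.13 CPM, a log2 change of -0.35 ± 0.08 (95% interval -0.53 to -0.17, adjusted p = 0.0462). With 1 rat left out, the call stood without FSH replicate 4 (adjusted p = 0.0330) and ended without any of the other 10 (adjusted p from 0.0542 to 0.109). It also ended without the filter on low counts (0.0553) and with degarelix only replicate 4 and FSH replicate 3 left out together (0.0852). The median over the 7 genes was 0.04.

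Errfi1 (ENSRNOG00000058186) encodes Mig-6, which binds receptors of the EGF family and shuts off their kinases. Its level ran from 36.5 to 67.1 CPM without FSH with a median of 50.2, and was 55.8, 67.7, 70.8, 84.0 and 116 CPM with FSH. FSH replicates 2 to 5 lay above every degarelix only rat. The mean was 49.9 ± 10.9 CPM (SD, n = 6) without FSH and 78.9 ± 23.1 CPM (SD, n = 5) with FSH, a 1.58-fold ratio and a log2 difference of 0.66 ± 0.19 that did not pass over all genes (edgeR unadjusted p = 0.00513, adjusted p = 0.0871). DESeq2's Wald test gave adjusted p = 0.0179 for Errfi1 and 0.0252 for Sgk1, in a setting that called 5.05% of all genes it tested as higher, while the other alternatives run gave adjusted p from 0.0724 to 0.169 for Errfi1 and from 0.0539 to 0.189 for Sgk1.

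The EGF receptor family and its feedback genes were read beside Errfi1. Of 10 tested, none passed, 8 lay above 0 and 2 below, with a median of 0.33, and 3 were higher at an unadjusted p below 0.05 (11.8% of all genes). Apart from Errfi1 these were the ligand Hbegf (log2 difference 0.91 ± 0.41, adjusted p = 0.213) and the receptor Erbb3 (1.52 ± 0.68, adjusted p = 0.213). The value of Erbb3 came from 1 library. FSH replicate 3 held 43.7 CPM, the other 10 rats held 2.96 to 5.70 CPM, and the log2 difference without that rat was -0.05. FSH replicate 3 was also the highest rat for Hbegf, at 25.7 CPM, and without it the log2 difference of Hbegf was 0.27 (adjusted p = 0.544).

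Summed endothelial markers lay higher with FSH beside these genes, at 1632 ± 170.5 CPM (range 1425 to 1932, n = 6) without FSH and 2046 ± 393 CPM (range 1618 to 2638, n = 5) with FSH, over 8 matched markers of 9. The exact permutation p was 0.0325 and 0.351 adjusted over 18 lists, and all 18 had an adjusted p of 0.351 or more. Smooth muscle and pericyte markers summed to 596 ± 74.5 and 716 ± 130.5 CPM (exact permutation p = 0.0974), and erythrocyte markers to 271 ± 206 and 594 ± 373 CPM (p = 0.0671). The part of these markers in the values of Sgk1, Errfi1 and Nedd4l was not tested.

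Mt2A (ENSRNOG00000043098) encodes a metallothionein, a small protein that binds zinc and copper through its cysteines. Its gene is induced both by glucocorticoids and by metals, the latter through metal response elements read by the factor Mtf1. The stretches of 250 bases before the start of Mt2A and of its neighbours Mt1 and Mt3 are shown because Mt2A and Mt1 were highest in the same rat of each group, and Mt3 in 1 of these rats (RefSeq, assembly GRCr8, which is not the build of the counts, printed 5′ to 3′ along the gene's strand). Capitals mark the core of the metal response element, searched as TGCGCNC or TGCACNC on both strands, a search chosen after values were seen.
Mt2A, chr19:10838709-10838958 (-): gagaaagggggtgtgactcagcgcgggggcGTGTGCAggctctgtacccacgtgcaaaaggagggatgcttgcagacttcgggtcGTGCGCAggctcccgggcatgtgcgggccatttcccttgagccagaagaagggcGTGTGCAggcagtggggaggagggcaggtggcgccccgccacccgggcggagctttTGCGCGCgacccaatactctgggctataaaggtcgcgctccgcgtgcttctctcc
Mt1, chr19:10832976-10833225 (-): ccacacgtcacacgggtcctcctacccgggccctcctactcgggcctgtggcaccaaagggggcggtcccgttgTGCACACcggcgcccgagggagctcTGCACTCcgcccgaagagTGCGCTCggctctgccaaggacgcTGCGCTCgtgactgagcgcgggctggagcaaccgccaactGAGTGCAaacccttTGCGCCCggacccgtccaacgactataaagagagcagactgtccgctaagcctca
Mt3, chr19:10856081-10856330 (-): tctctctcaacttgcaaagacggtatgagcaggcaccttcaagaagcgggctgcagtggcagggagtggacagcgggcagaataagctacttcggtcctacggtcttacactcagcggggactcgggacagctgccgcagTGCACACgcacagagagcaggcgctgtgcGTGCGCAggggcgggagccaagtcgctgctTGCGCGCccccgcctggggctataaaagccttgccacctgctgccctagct
The window of Mt2A holds 4 cores, which begin 220, 165, 111 and 55 bases before the start. That of Mt1 holds 6 and that of Mt3 holds 3. The same search was made over the 250 bases before the start in 33465 RefSeq promoter windows. Of these, 20.6% hold at least 1 core, 1.17% hold 3 or more, 0.266% hold 4 or more and 0.0747% hold 5 or more. A core is a match of letters, and neither binding nor use was measured here.

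The same windows were searched for the palindromic glucocorticoid response element, an arm AGAACA, then any 3 bases, then an arm TGTTCT, with at most 2 mismatches at its 12 fixed letters. Of the members, 7 matched to 12 windows, and Zbtb16 and Hsd11b1 matched to none. None of the 12 windows held the element, which 1.58% of all windows hold, and none held a single arm on either strand, which 17.5% hold. This says only that those letters are not in these windows.

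Mt2A was read at 3.85 to 19.6 CPM without FSH, with a median of 5.82, and at 4.50, 10.9, 18.7, 4.47 and 7.08 CPM with FSH. Both groups held 1 rat near the top, degarelix only replicate 4 and FSH replicate 3, and otherwise covered similar ranges. The log2 difference was 0.23 ± 0.49 (95% interval -0.85 to 1.31, adjusted p = 0.819). It was 0.77 without degarelix only replicate 4 (adjusted p = 0.243) and -0.20 without FSH replicate 3, so single rats set both its size and its sign.

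Within each group Mt1m and Mt1 were highest in these same rats, while Mt3 was high in FSH replicate 3 alone. Mt1m held 2.54 to 13.1 CPM (median 3.69) without FSH and 3.12, 5.24, 12.6, 3.83 and 4.17 CPM with FSH, and its deviations from the group means had r = 0.95 with those of Mt2A over 11 rats (r = 0.72 for Mt1). Near-identical copies of these genes can split or share reads, so the likeness is uncertain. Mt3, the form best known from brain, held 15.1 CPM in FSH replicate 3 and at most 0.617 CPM in the other 10 rats. Of 7 tested zinc and metallothionein genes, Mt2A included, none passed, and the zinc exporter Slc30a1 was lower at an unadjusted p below 0.05 (-0.31 ± 0.13, adjusted p = 0.191). The median was 0.10, with Mt1 at 0.67 ± 0.42 and the zinc importer Slc39a10 at 0.10 ± 0.07. Mt1 was read at only 6 to 25 counts per library without FSH and 6 to 28 with FSH, so its values are uncertain.

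Beyond the 9 genes, 30 other genes known to be induced by glucocorticoids were tested. None passed, 20 lay above 0 and 10 below, and their median of 0.16 stood beside 0.01 for all genes. At an unadjusted p below 0.05, 5 of 30 were higher (Sult1a1, Fam107a, Nfkbia, Ddit4 and Rgcc) and 2 were lower (Crispld2 and Lpin1), a share near the 22.6% of all genes. The sulfotransferase Sult1a1 averaged 221 ± 27.1 CPM in degarelix only rats and 284 ± 28.7 CPM in FSH rats (log2 difference 0.36 ± 0.10, adjusted p = 0.0715). It passed without FSH replicate 4 (adjusted p = 0.0417, range 0.0133 to 0.153 over the alternatives). Fam107a, a stress-induced actin-binding protein, had a log2 difference of 0.55 ± 0.16 (adjusted p = 0.0846). It passed without degarelix only replicate 4 (adjusted p = 0.0234) and without both that rat and FSH replicate 3 (0.0395), within a range of 0.0185 to 0.189 over the alternatives. Nfkbia, the inhibitor of NF-kappa-B, had 0.33 ± 0.10 (adjusted p = 0.0959). Ddit4, an inhibitor of mTOR signalling, stood at 0.65 ± 0.22 (adjusted p = 0.121).

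On the lower side, Crispld2, a secreted protein, averaged 320 ± 25.8 CPM in degarelix only rats and 229 ± 51.2 CPM in FSH rats (-0.48 ± 0.13, adjusted p = 0.0755). It passed under DESeq2's Wald test and under limma-voom with sample quality weights, within a range of 0.0115 to 0.139 over the alternatives. Lpin1, the phosphatidate phosphatase, had -0.54 ± 0.19 (adjusted p = 0.132). The clock gene Per1, a direct receptor target, had 91.3 ± 26.5 and 98.2 ± 3.92 CPM (0.11 ± 0.19, adjusted p = 0.777). Genes that glucocorticoids are known to hold down gave no call either. Of 12 such symbols only 5 could be tested, with a median of 0.02, and the adhesion molecules Icam1 (-0.13 ± 0.10) and Vcam1 (0.18 ± 0.19) and the chemokine Ccl2 (-0.25 ± 0.27) all had an adjusted p of 0.468 or more.

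**Figure D3:**
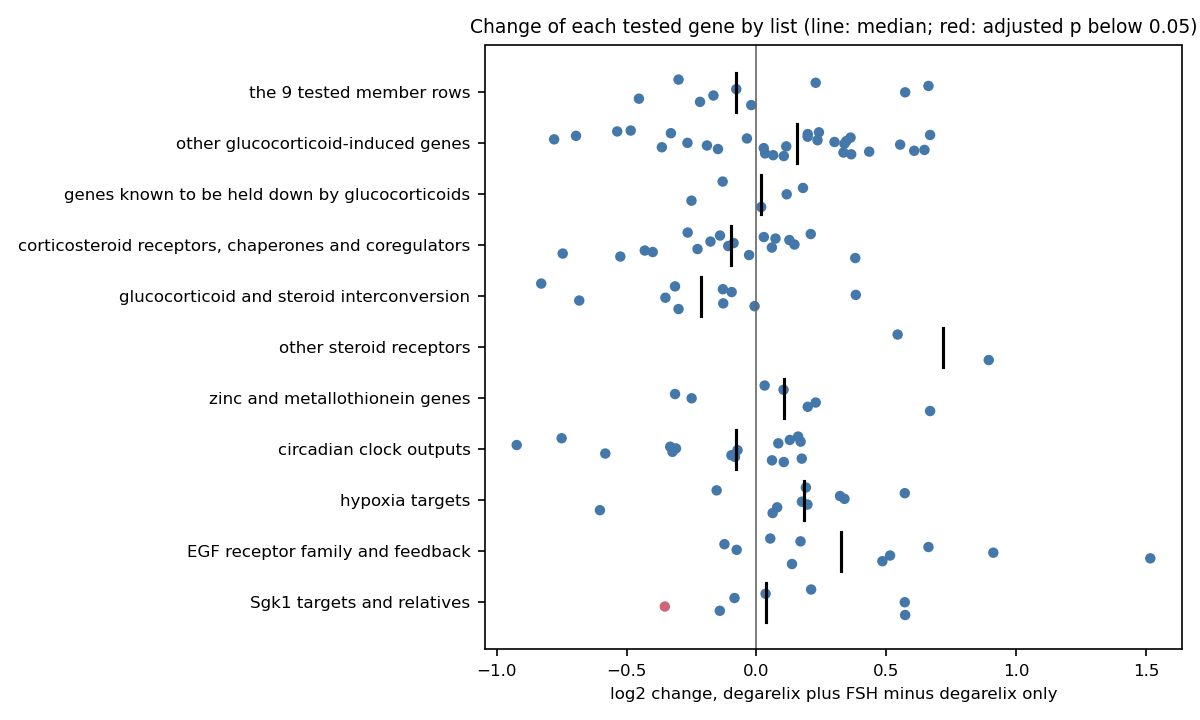
Log2 difference (degarelix plus FSH over degarelix only) of each tested gene in the members and 10 pathway lists, 1 point per gene, with a line for the list's median. The median is 0.16 for the other glucocorticoid-induced genes and -0.21 for interconversion, beside 0.01 for all genes, and among the points only Nedd4l (red) passed the threshold.

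3 neighbouring systems share genes or inputs with glucocorticoid signalling. Of 16 circadian clock genes none passed, 3 were lower at an unadjusted p below 0.05 and the median was -0.08. With both directions counted, neither this count nor that of the hypoxia genes exceeded the 22.6% share of all genes. The 3 clock genes were the output factor Hlf (3.10 ± 0.473 to 2.08 ± 0.275 CPM, -0.58 ± 0.15, adjusted p = 0.0632) and the repressors Bhlhe40 (-0.75 ± 0.26, adjusted p = 0.122) and Nr1d1 (-0.32 ± 0.15, adjusted p = 0.214). Hlf passed under DESeq2's Wald test and under limma-voom with sample quality weights (adjusted p from 0.0190 to 0.200 over the alternatives). Bhlhe40 passed without degarelix only replicate 4 (adjusted p = 0.0446) and not without both that rat and FSH replicate 3 (0.0848), within a range of 0.0368 to 0.273 over the alternatives. Of 10 hypoxia genes, read beside Hif3a, none passed, 2 were higher at an unadjusted p below 0.05 (11.8% of all genes) and the median was 0.18. These were the peptide hormone Adm (0.34 ± 0.11, adjusted p = 0.0998) and Epas1, which encodes the factor HIF-2 alpha (0.19 ± 0.08, adjusted p = 0.182), while Hif1a stood at -0.15 ± 0.07 (adjusted p = 0.246). Of the other steroid receptors, 2 were tested, the estrogen receptor Esr1 (48.4 ± 25.1 to 90.1 ± 47.7 CPM, 0.89 ± 0.46, adjusted p = 0.274) and the membrane estrogen receptor Gper1 (0.54 ± 0.25, adjusted p = 0.225).

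The members were then compared rat by rat, as deviations from the group mean of log2 CPM, which leaves out the difference between the groups. Ranked by CPM, with the group means kept in, degarelix only replicate 4 was the highest of the 11 rats for 4 of 8 members with counts. These were Fkbp5, Tsc22d3 (main row), Zbtb16 and Mt2A, and by CPM that rat was the lowest for none. The same rat had the lowest Hsd11b1 CPM of its group, and FSH replicate 3 had the lowest Hsd11b1 CPM of all. As deviations, degarelix only replicate 4 was also the highest for Sgk1 (0.42). It was the lowest for Hsd11b1 (-0.69, with FSH replicate 3 next at -0.63). The map of deviations shows these rats above their group means for Fkbp5, Tsc22d3, Sgk1 and Mt2A. They were below them for Hsd11b1 and for Klf9 (-0.25 in degarelix only replicate 4 and -0.29 in FSH replicate 3). For Zbtb16 and Errfi1, degarelix only replicate 4 was above (0.58 and 0.05) and FSH replicate 3 below (-0.15 and -0.11).

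**Figure D4:**
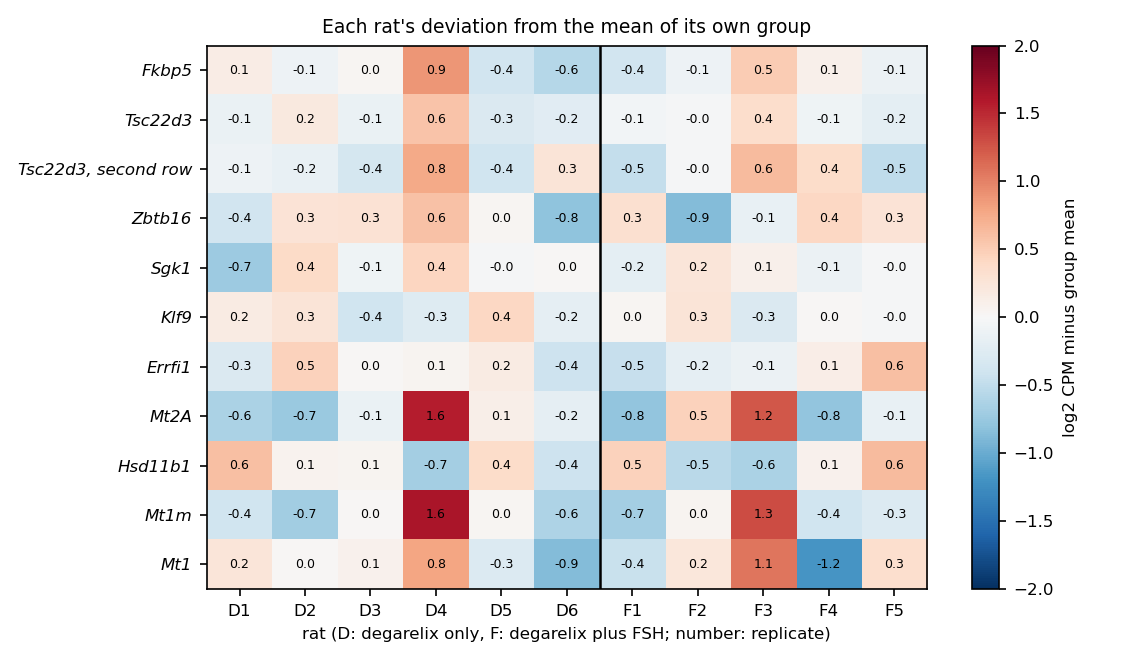
Deviation of each member from its group mean (log2 CPM, prior count 2) in each of the 11 rats, with columns for rats and rows for the members and the metallothioneins Mt1m and Mt1. Degarelix only replicate 4 and FSH replicate 3 are above their group mean for Fkbp5, Tsc22d3, Sgk1 and Mt2A and below it for Klf9 and Hsd11b1. For Zbtb16 and Errfi1, degarelix only replicate 4 is above and FSH replicate 3 below.

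Across the 28 pairs of these 8 genes, r was above 0 in 17, with a median of 0.17, and no pair passed after Benjamini-Hochberg adjustment (smallest adjusted p = 0.178 for r and 0.358 for rho, exact permutation within groups, 86400 arrangements). The highest was Fkbp5 with Tsc22d3, at r = 0.83 (exact permutation p = 0.00906, adjusted 0.178) and rho = 0.64 (p = 0.0549, adjusted 0.358). Without the 2 rats farthest from the median of Fkbp5, r was 0.33, so its size depended on those rats. Leaving out the farthest rats also narrows the range, so a lower r alone does not show that a relation rests on them. With 1 rat left out, r lay between 0.63 and 0.89.

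Hsd11b1 was on the negative side of its strongest pairs. It had r = -0.74 and rho = -0.64 with Mt2A (exact permutation p = 0.0191 and 0.0636, adjusted 0.178 and 0.358), and r = -0.66 and rho = -0.72 with Sgk1 (exact permutation p = 0.0176 and 0.0203, adjusted 0.178 and 0.358). Without the 2 rats farthest on Mt2A (degarelix only replicate 4 and FSH replicate 3), r with Mt2A was -0.45. Without the 2 farthest on Sgk1 (degarelix only replicates 1 and 4), r with Sgk1 was -0.46. The other pairs with an unadjusted p below 0.05 were Fkbp5 with Mt2A (r = 0.67, or -0.22 without the 2 farthest rats), Tsc22d3 with Mt2A (0.66, or -0.39) and Tsc22d3 with Hsd11b1 (-0.63, or -0.18). All 3 had an adjusted p of 0.192 by exact permutation. Their 2 farthest rats were degarelix only replicate 4 and FSH replicate 3. The size of r in these 3 pairs depended on those rats, and so did its sign in the pairs with Mt2A.

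**Figure D5:**
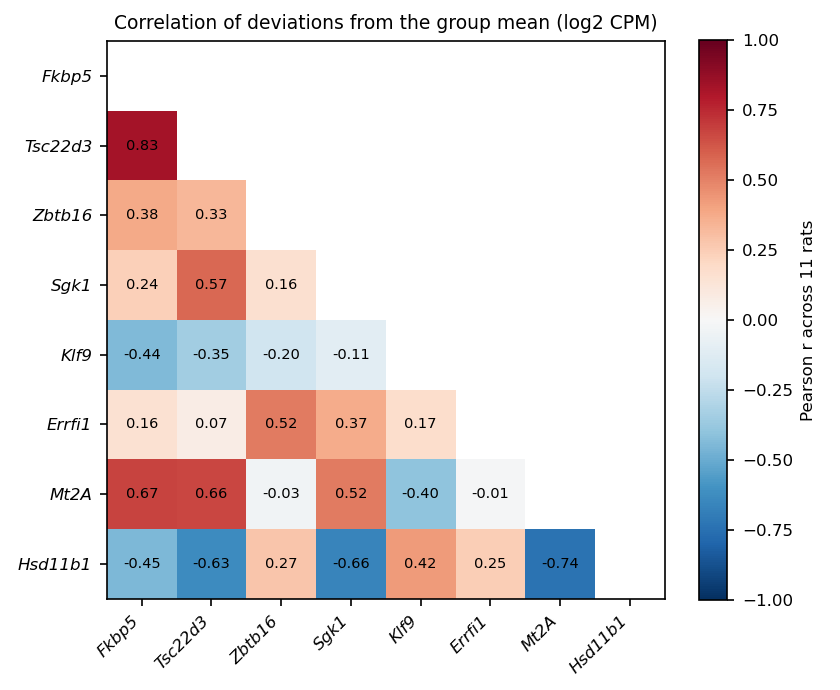
Pearson r between members over the 11 rats, of deviations from the group mean (log2 CPM), 1 square per pair of the 8 members with counts. The highest value is 0.83 (Fkbp5 with Tsc22d3) and the lowest -0.74 (Mt2A with Hsd11b1), and no pair passed after adjustment over the 28.

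Among 9422 genes with a mean of at least 5 CPM, those whose deviations were most like Fkbp5 over the 11 rats were Trit1, a tRNA-modifying enzyme (r = 0.97), Maff, a small Maf transcription factor (0.93), and Srr, the serine racemase (0.91). Those most like Hsd11b1 were Alad, an enzyme of heme synthesis (0.96), Btf3, a transcription and nascent-chain factor (0.96), and Cox5a, a subunit of cytochrome c oxidase (0.95). These are the top values out of all genes compared in the same 11 libraries and are given as a description.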

How the data were processed

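The authors deposited whole-number counts per Ensembl gene, 1 column per rat, with no normalization. Per the submitters' processing notes, build rn6 and the tools STAR, edgeR and DESeq2 were used, with no roles stated. How reads were counted, and on which strand, is not given in the sources used here, so overlapping, antisense and near-identical genes are uncertain. Per the labels' protocols the libraries were stranded paired-end mRNA libraries. 1 of 25275 rows was left out because a cell holds a letter. edgeR 4.0.16 in R 4.3.3 (TMM, filterByExpr with a minimum count of 10, robust quasi-likelihood test, 9 residual degrees of freedom, two-sided) was fitted to 12846 genes, with Benjamini-Hochberg adjustment at 0.05. DESeq2 1.42.0 and limma 3.58.1 served as alternatives, beside 2 other scalings, other filters, the replicate number as a block, no robust estimation and each rat left out. Leaving out 2 rats together was chosen after seeing the data.

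The members and lists were chosen with earlier results of these data known. Of the pathway and marker symbols, 233 matched directly, 3 through a synonym, 5 were on several rows and stayed out unless members, and 10 were not matched. Named were all members and, per list, genes past the threshold or else the 3 of smallest p; Nfkbia, Ddit4, Rgcc, Lpin1, Per1, Ncoa3, H6pd, Hsd11b2, Nr3c1, Mt1m and Mt3 were chosen after their values were seen. 1 list gene is not reported here. Correlations between members covered 28 pairs, since Hif3a does not vary. No 2 libraries agreed within sampling noise (lowest chi-square per degree of freedom 21.0). The edgeR step was tested on simulated data.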

Additional observations from a re-analysis of the deposited data

Results flagged for a closer look

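Groups of 5 or 6 rats were examined, each for a member, another named gene or a summed marker level in 1 treatment group. Of 130 such groups, 15 held a rat far from the others by Dixon's criterion at 95%. Chance flags about 1 in 20 groups where values are normally distributed, a shape that CPM values need not have. The groups share rats, so these values are not independent of one another.

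Among the members, degarelix only replicate 4 stood apart for Fkbp5, at 124 CPM against 74.4 CPM in the next rat, and for Mt2A, at 19.6 CPM against 7.06 CPM. FSH replicate 3 stood apart for Tsc22d3, at 244 CPM against 189 CPM. The same 2 rats stood apart for the metallothionein Mt1m, at 13.1 CPM in degarelix only replicate 4 and 12.6 CPM in FSH replicate 3. Degarelix only replicate 4 was also far out for summed mast cell markers, at 93.3 CPM, and for Maff, at 23.5 CPM. Maff was picked for its likeness to Fkbp5, so its value in that rat is not independent of the Fkbp5 value.

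FSH replicate 3, the library with the lowest total count, was far out for Mt3 (15.1 CPM against 0.617 CPM in the next rat of its group), the EGF family receptor Erbb3 (43.7 CPM against 4.90 CPM), the ligand Hbegf (25.7 CPM against 8.54 CPM) and summed skeletal muscle markers (11.2 CPM). FSH replicate 4 was far out for summed adipocyte markers, at 33571 CPM, and for summed erythrocyte markers, at 1247 CPM. On the low side, FSH replicate 2 held 13.02 CPM of Adm and FSH replicate 1 held 57.8 CPM of Hif1a. Causes were not tested.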

How the results depend on the processing

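No member passed the threshold in the 21 alternatives except under DESeq2's Wald test, which called 2 members (Sgk1 and Errfi1) and 1135 genes in all, against 292 genes in edgeR. Over the 21 alternatives the log2 difference lay between 0.46 and 0.66 for Sgk1, 0.48 and 0.77 for Errfi1 and -0.48 and -0.16 for Hsd11b1. Genes called numbered 14 with the replicate number as a block, 635 under limma-voom with sample quality weights, and 30 to 551 with 1 rat left out (fewest without FSH replicate 2, most without FSH replicate 4). Same-numbered rats shared only a number (correlations of their deviations from -0.11 to 0.13, and 1 of 5 correlated best with its own number), and under the block Nedd4l lost its call (adjusted p = 0.138). With 2 rats left out together (degarelix only replicate 4 and FSH replicate 3) the adjusted p of Nedd4l was 0.0852.

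The sign turned for members near 0. Fkbp5 was at 0.0303 with limma-voom, 0.0441 with quality weights, 0.0672 with both rats left out, and -0.17 to 0.21 with 1 rat left out, where it was above 0 without degarelix only replicate 4 (0.21) or FSH replicates 1 (0.07), 2 (0.01) or 5 (0.01). Zbtb16 was at 0.0261 with both rats left out and between -0.30 and 0.0045 with 1 left out (above 0 without FSH replicate 2). Klf9 lay between -0.15 and 0.0121 with 1 rat left out (above 0 without degarelix only replicate 5), Mt2A between -0.20 and 0.77, and Erbb3 between -0.0512 and 1.76, both lowest without FSH replicate 3. The causes were not tested. No pair of members passed in any alternative of the correlations. For Hif3a, at 0 counts throughout, the depth allows only the upper limits given in the report.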
